A study of Canis lupus familiaris with 18 samples.

Results

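The regions described here carried a peak of H3K27ac in the pons of all 3 dogs homozygous for the derived allele of *GTF2I*, and in none of the 3 dogs that carried the ancestral allele. They are called derived-only regions. Members were chosen by merging the H3K27ac peaks of 6 dogs on the 38 numbered autosomes wherever peaks overlapped or touched, which gave 175766 regions, and by keeping those with a peak in exactly the 3 derived dogs. The rule found 577 regions, or 0.328% of all regions. A called peak in every derived list and none in the ancestral lists is therefore what selected them and is no result, and a missing peak does not show a missing mark.

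*ChIP-seq* was done on pons, a part of the brainstem, from male dogs aged 12 to 16 years. The 3 ancestral dogs were heterozygous for a transposable element (TE) inserted in *GTF2I*, a gene for a general transcription factor, and also carried 1 allele without it. The 3 derived dogs lacked the TE on both alleles. All dogs but a single Labrador were of mixed breed, the dogs also differed at other TE sites, and no treatment was given, so the genotype cannot be told apart from other differences between these few animals. Each dog gave 1 list of E2F1 peaks and 1 list of H3K27ac peaks, called by the authors with macs2 in each dog alone, so a dog is 1 replicate and n is 3 for each genotype. Gene names, sequence and markers of pons could not be set beside the regions, because no annotation of this genome build was used here, except the exons of *GTF2I*.

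H3K27ac is acetylation of lysine on the tail of histone H3, placed by the acetyltransferases p300 and CBP, and it marks active promoters and enhancers. In brain, as in other tissues, acetylated promoters are largely shared between animals and cell types, and distal enhancers vary more. E2F1 is a transcription factor best known for switching on genes of DNA replication and the cell cycle, and it binds mostly at promoters. In bulk tissue, a stronger mark per cell and more cells that carry it cannot be told apart.

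By number, the derived-only regions stood near the middle of all sets of 3 dogs. Any 3 of the 6 dogs can share regions that the other 3 lack, and there are 20 such sets. The 577 regions of the derived dogs came 10th from the most, and the 480 regions found in exactly the 3 ancestral dogs, 0.273% of all regions, came 13th. The 18 sets of mixed genotype held from 284 to 2235 regions with a median of 614.5, of which 9 sets lay above the derived dogs and 9 below. The largest was the set of ancestral dog 1 with derived dogs 1 and 3. Ancestral dog 1 had the longest list, with 138141 autosomal peaks against 96561 to 118156 in the other 5 dogs, and it belonged to each of the 3 largest sets. Among the sets without ancestral dog 1, only ancestral dog 2 with derived dogs 1 and 3 held more than the derived dogs, at 727 regions. The part of list length in this order was not tested. With the dogs divided into 3 and 3, the derived and ancestral dogs together had 1057 such regions, the 9th highest of the 10 possible divisions, which ranged from 856 to 2539. The surplus over the ancestral-only regions depended on how presence was counted, at 757 against 405 when a dog's peaks had to cover at least 50% of a region and at 686 against 391 with an equal number of peaks per dog. These counts are a description and were not given a p-value.

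**Figure D1:**
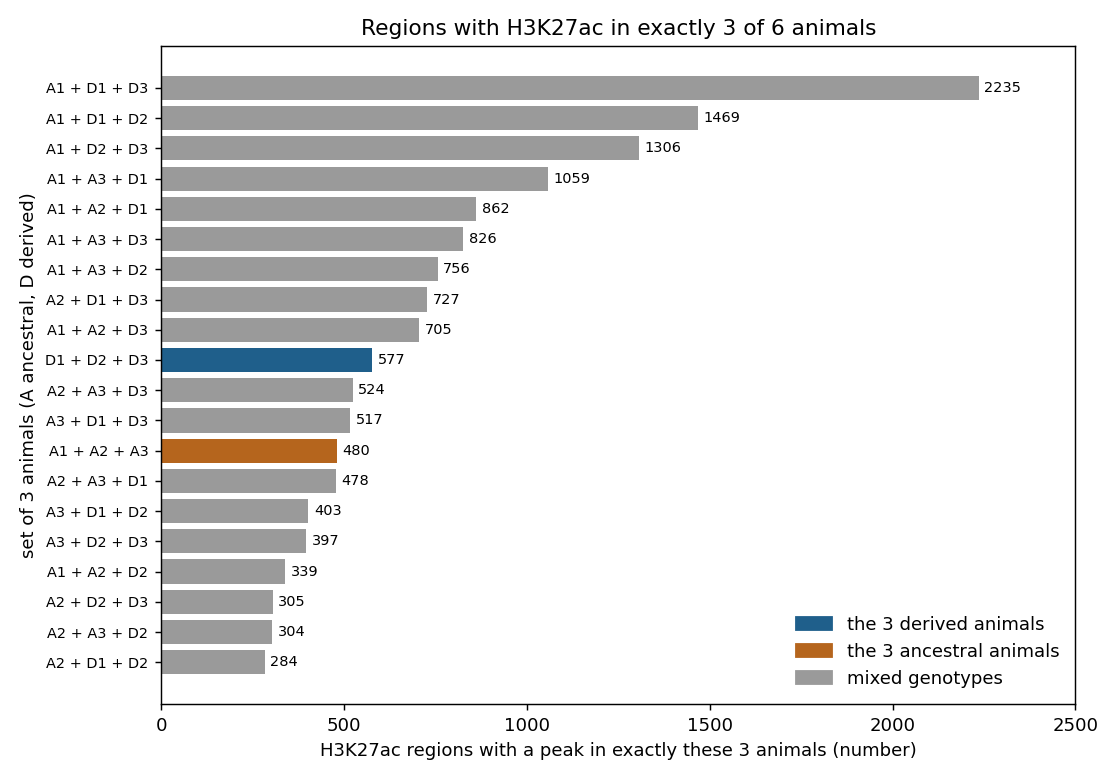
Number of H3K27ac regions with a peak in exactly 3 of the 6 dogs, for each of the 20 sets of 3 dogs, where A1 to A3 are the ancestral and D1 to D3 the derived dogs. The derived set (577, blue) and the ancestral set (480, orange) lie among the 18 mixed sets (grey, 284 to 2235).

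Most regions were marked either in a single dog or in every dog. A peak was present in 1 dog at 65115 regions, 37.0% of the total, and in all 6 dogs at 47984 regions, 27.3%. Regions in exactly 3 dogs numbered 14553, and the derived-only regions made up 3.96% of those. The rule has a sharp edge. A further 2645 regions had a peak in all 3 derived dogs and 1 ancestral dog, of which 1819 had it in ancestral dog 1, 360 in ancestral dog 2 and 466 in ancestral dog 3. The ancestral peak that kept these out had a median −log10 q of 2.24, where q is macs2's false discovery rate for the peak, and at 148 of them it was not below a q of 0.05. Regions in which 1 derived dog was missing, with no ancestral peak, numbered 1035 for derived dog 1, 1966 for derived dog 2 and 1136 for derived dog 3. Thus the dogs that most often decided membership were ancestral dog 1, with the longest list, and derived dog 2, with the shortest.

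The derived-only regions were held by weak peaks. Since the same lists chose them, these values are a description. The median fold enrichment of their peaks over local background was 2.67 in derived dog 1, 2.53 in derived dog 2 and 2.58 in derived dog 3, where the medians of the whole lists were 3.04, 3.13 and 2.99. The median −log10 q was 2.196, 2.14 and 1.95, against 3.21, 4.01 and 2.98 for the whole lists. Placed by q within each dog's own list, the median derived-only region lay at the 28.7th, 24.4th and 27.8th percentile. In all 3 dogs the peak fell below the list median at 355 regions (61.5%), and it lay above it in all 3 at 27 regions (4.68%). At 125 regions (21.7%) at least 1 of the 3 peaks was not below a q of 0.05, and at 6 regions all 3 were below 1e-05. Derived dog 2 gave the peak of lowest percentile at 233 regions, derived dog 3 at 175 and derived dog 1 at 169. The ancestral-only regions were alike in this respect, with 289 (60.2%) below the list median in all 3 dogs and 15 above.

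**Figure D2:**
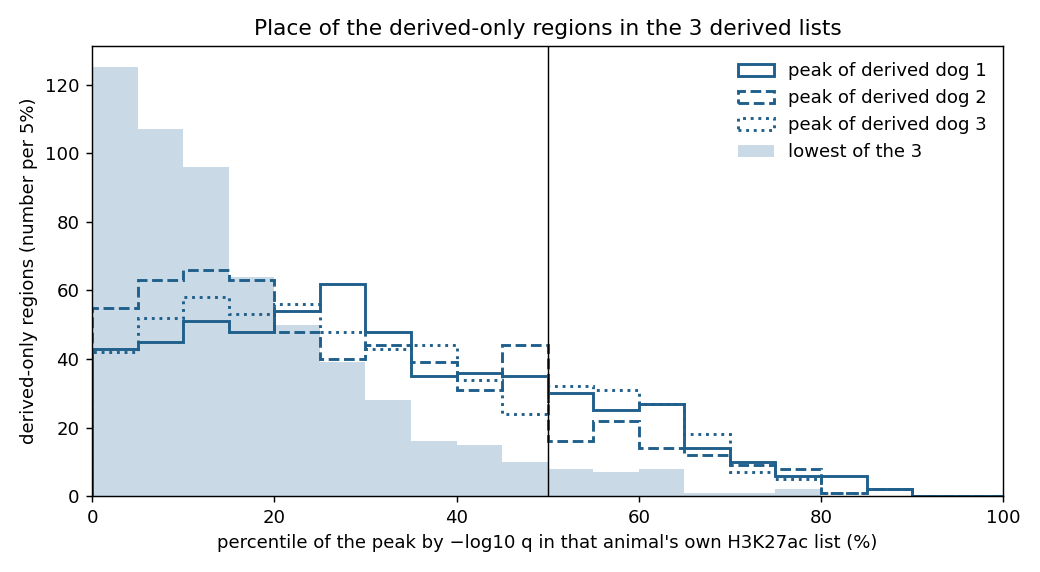
Percentile of the H3K27ac peak by −log10 q within its own list (x axis) at the 577 derived-only regions (y axis, regions per 5%), for each derived dog (lines) and for the lowest of the 3 (filled). Most regions lie left of the list median (vertical line), and the lowest of the 3 percentiles has a median of 13.1.

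The best supported region was chr19:36777631-36781524 in the CanFam3.1 build, 3894 bp wide, of which 2016 bp lay in peaks of all 3 derived dogs. Its peaks had fold enrichments of 4.16, 4.64 and 5.61 in derived dogs 1 to 3, and −log10 q values of 8.19, 10.8 and 12.3. The nearest ancestral peak was 19961 bases away and belonged to the nearest region shared by all 6 dogs, so no ancestral list had anything closer. It was the widest of the 27 regions above the list median in all 3 dogs.

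The next 4 by the lowest of the 3 percentiles were all narrow. The region chr11:16468646-16469082, 437 bp wide, had −log10 q values of 8.52, 10.3 and 6.40 in derived dogs 1 to 3. The region chr4:66769744-66770102, 359 bp wide, had 8.09, 8.11 and 6.44. The region chr9:40260615-40261011, 397 bp wide, had 6.62, 9.61 and 4.47. These 3 lay 1165, 1164 and 1252 bases from a region marked in all 6 dogs. The last, chr18:18555288-18555679, 392 bp wide, lay farther off, 47085 bases from the nearest ancestral peak, and had −log10 q values of 13.9, 6.14 and 5.60 at fold enrichments of only 2.92, 2.51 and 2.27. None of the 5 held an E2F1 peak in any dog, even with all deposited E2F1 peaks counted.

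At the other end, 4 regions were tied at the lowest percentile, through a peak of derived dog 2 with a −log10 q of 1.01, close to the lower limit of the list. Of the 3 taken by the naming rule, chr5:40388333-40389483 had −log10 q values of 1.93, 1.01 and 1.91 in derived dogs 1 to 3. The region chr20:53735698-53736434 had 2.196, 1.01 and 1.42. The region chr35:25411912-25413321 had 2.78, 1.01 and 1.65, and no base of it lay in peaks of all 3 dogs. Just outside the rule, chr21:34269552-34270789 had a peak in ancestral dog 3 with a −log10 q of 1.02 beside the 3 derived peaks, and chr19:2515495-2517786 had one of 1.02 in ancestral dog 1. The chr4:4650234-4653734 region was left out through a peak of 1.04 in ancestral dog 2. The regions just inside and just outside thus differed by single peaks at the limit of calling.

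The derived-only regions were narrow beside the acetylation that all dogs shared. Their width had a median of 1414 bp, with quartiles of 923 and 1980 bp and a range of 325 to 4896 bp, and summed to 0.892 Mb. Regions in all 6 dogs had a median of 4118.5 bp, and regions in 1 dog a median of 519 bp. Against classes with the same number of dogs they did not stand out, since the ancestral-only regions had a median of 1481 bp and the mixed sets of 3 dogs a median of 1409 bp. At 562 of the 577 regions each derived dog had a single peak. The stretch covered by all 3 dogs had a median of 266 bp, or 22.7% of the region, and at 62 regions it was 0, because the 3 peaks were joined only as a chain. In 131 regions (22.7%) the shared stretch made up at least 50% of the width. Width therefore often came from 1 dog. The widest region, chr9:40023318-40028213 with 4896 bp, was a peak of that whole length in derived dog 1 and peaks of 329 and 325 bp in derived dogs 2 and 3. The next, chr6:11588441-11593266 with 4826 bp, was spanned by derived dog 3, with peaks of 1165 and 1154 bp in the others. The region chr4:73702466-73706719 with 4254 bp was spanned by derived dog 1, with 443 bp in derived dog 2 and 1166 bp in derived dog 3, and an ancestral peak lay 121 bases from it.

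The derived-only regions lay near acetylation found in all 6 dogs. The median distance to the nearest six-animal region was 6114 bases, with quartiles of 2027 and 18404 bases. It was 13039 bases for the ancestral-only regions, 7641 bases for mixed sets of 3 dogs and 14170 bases for regions in 1 dog. Within 5000 bases of a six-animal region stood 254 derived-only regions (44.0%), against 30.6% of ancestral-only, 39.9% of mixed and 26.2% of one-animal regions. Very close neighbours were few in every class. Within 1000 bases stood 26 derived-only regions (4.51%), against 4.17% of ancestral-only, 3.72% of mixed and 3.22% of one-animal regions. Only 48 (8.32%) lay over 50000 bases away, against 22.3% of the ancestral-only and 12.2% of the mixed regions. A six-animal region stood within 10000 bases on both sides of 125 derived-only regions (21.7%) and 47 ancestral-only regions (9.79%). The neighbouring six-animal regions themselves were ordinary in width, with a median of 4019 bp over 562 distinct regions, and 313 of them (55.7%) held an E2F1 peak with a q below 0.0005 in some dog, where 61.7% of all six-animal regions did.

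**Figure D3:**
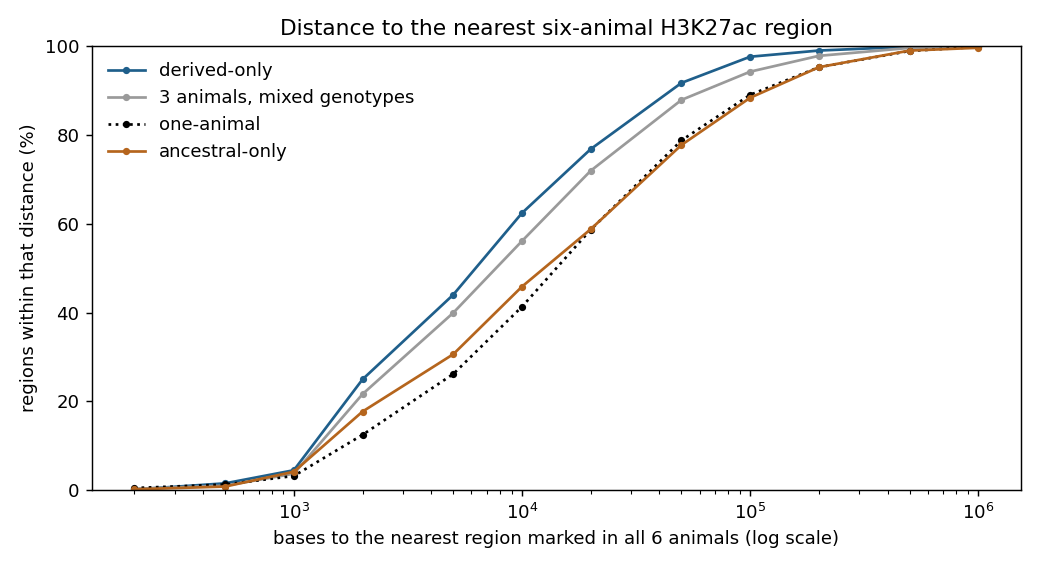
Share of regions (y axis, percent) within a given distance of the nearest H3K27ac region marked in all 6 dogs (x axis, bases, log scale). From 500 bases upward the derived-only curve (blue, 577 regions, median 6114 bases) runs at or above the mixed sets (grey, median 7641 bases) and the ancestral-only regions (orange, median 13039 bases).

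The distances also varied with the dogs. Over the 20 sets of 3 dogs the median distance ran from 5319 to 13912 bases and the derived set was the 3rd nearest, where the sets share dogs and their order is a description. Both nearer sets held derived dog 2, namely ancestral dog 1 with derived dogs 1 and 2 at 5319 bases, and ancestral dogs 1 and 3 with derived dog 2 at 5627.5 bases. The 4 farthest sets all held ancestral dogs 2 and 3 together, among them the ancestral set in the 19th place. Regions marked in 1 dog alone, which the rule left out, gave the same measure for each dog. They came from the same H3K27ac lists, so they are not independent of the rule. Their number ran from 3820 in ancestral dog 3 to 25759 in ancestral dog 1. For ancestral dogs 1 to 3 the median distance was 14380, 24045.5 and 12595 bases, and for derived dogs 1 to 3 it was 13471, 8034 and 14952.5 bases. Derived dog 2 was nearest and ancestral dog 2 farthest, and the genotypes overlapped. The ancestral dogs averaged 17007 ± 6161 bases (SD, n = 3) and the derived dogs 12153 ± 3643 bases (SD, n = 3), a difference of -4854 bases (exact two-sided permutation test over 20 assignments, p = 0.5, where the smallest possible p is 0.1). The part of single dogs in the closeness of the derived-only regions was not tested further.

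Acetylation of the ancestral dogs was often nearby. The nearest ancestral H3K27ac peak of any dog lay a median of 2001 bases from a derived-only region, and within 1000 bases for 81 regions (14.0%). Over 10000 bases away were 43 regions (7.45%), and over 50000 bases 4 regions. The most remote was chr37:20422554-20423610, 163148 bases from any ancestral peak, with −log10 q values of 1.38, 1.27 and 1.81 in derived dogs 1 to 3. The region chr34:14031121-14032044 stood 70824 bases from one, with 1.46, 2.003 and 1.34. The region chr30:6278584-6280437 stood 68803 bases from one, with 2.45, 7.10 and 1.67. Each of these 3 was below the list median in at least 2 dogs. Of the 43 regions over 10000 bases away, 7 were above the list median in all 3 derived dogs, among them chr19:36777631-36781524 and chr18:18555288-18555679, and the lowest percentile had a median of 13.9 over the 43 and 13.1 over all derived-only regions. For ancestral-only regions the distance to the nearest derived peak was longer, with a median of 3265 bases and 95 regions (19.8%) over 10000 bases.

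Derived-only regions were spread over every autosome and seldom clustered. Chromosome 1 held the most, 37, and chromosome 29 the fewest, 3. Per 1000 H3K27ac regions of any kind, chromosome 1 was ordinary at 3.53 beside 3.28 over all autosomes, chromosome 29 was lowest at 1.44, and chromosomes 33, 37 and 30 were highest at 5.95, 5.74 and 5.42. They outnumbered the ancestral-only regions on 23 chromosomes, fell below them on 11 and equalled them on 4, with the widest gap on chromosome 10, at 25 against 7. They occupied 463 bins of 1 Mb, 366 of which held a single one. The most in a bin was 4, from 46 to 47 Mb on chromosome 2 and from 30 to 31 Mb on chromosome 6, and 15 bins held at least 3. Another derived-only region lay within 100000 bases of 76 regions (13.2%), and within 10000 bases of 14. The outer 5 Mb held a little more of them than of all regions, 9.71% against 8.49% at the start of chromosomes and 10.7% against 8.27% at the end. When the 1-Mb bins were ordered by their bases of six-animal H3K27ac, the richest of 4 equal groups held 39.7% of the derived-only regions and 39.6% of all regions, and the poorest 4.85% and 6.85%.

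**Figure D4:**
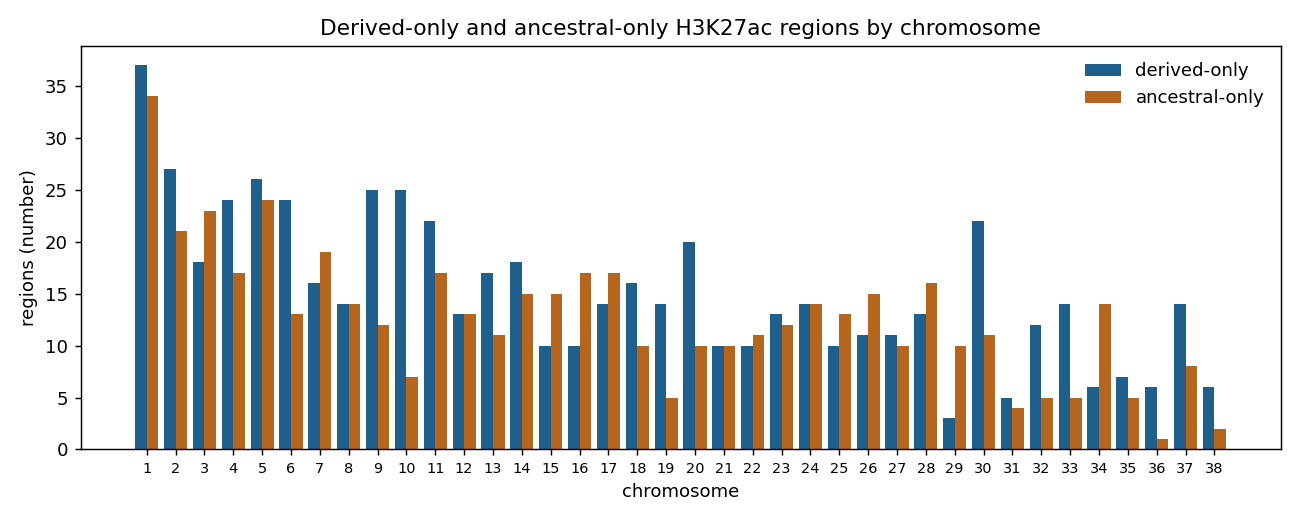
Number of derived-only (blue) and ancestral-only (orange) H3K27ac regions (y axis) on each of the 38 numbered autosomes (x axis). Derived-only regions range from 3 on chromosome 29 to 37 on chromosome 1.

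One derived-only region lay within *GTF2I* itself. The TE sits at chr6:5753797-5753983, and the nearest of the 24 derived-only regions on this chromosome was chr6:5790408-5791933, 36425 bases above it and the only one within 1 Mb. By the study's list of 34 *GTF2I* exons, numbered by rising coordinate, it was intronic. The paper counts introns toward lower coordinates, so these exon numbers are not the paper's. The region lay in the 9320-bp intron between exon 27 (chr6:5789933-5790011), 396 bases away, and exon 28 (chr6:5799332-5799376), 7398 bases away. The 3 derived peaks coincided closely, from 5790416 to 5791933, from 5790408 to 5791894 and from 5790638 to 5791808 in derived dogs 1 to 3, so that 1171 of its 1526 bp lay in all 3. They were weak. Their fold enrichments were 2.47, 2.40 and 2.34, their −log10 q values were 1.92, 1.81 and 1.498, and they stood at the 20.6th, 17.0th and 13.4th percentile of their lists. A region marked in all 6 dogs was 1630 bases away. The nearest ancestral peak was 2001 bases below it in ancestral dog 1, from 5788059 to 5788406. In the same intron, all 3 ancestral dogs had a peak above the region that began at 5797265, 5797288 and 5797288, with −log10 q values of 3.32, 5.35 and 2.70. Whether derived dogs also had a peak at that place is not given here, so the genotypes are not compared there. No dog had an E2F1 peak at the region.

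E2F1 was measured by another antibody and did not enter the choice of regions, but it came from the same animals. The H3K27ac lists of these dogs chose the regions by genotype, so the choice could by itself part E2F1 by genotype. The p-values at derived-only regions are therefore no independent tests. With E2F1 peaks of a q below 0.0005, the threshold of the study's methods, few derived-only regions held one. Ancestral dogs 1 to 3 had one at 2.77%, 3.99% and 3.81% of the regions, and derived dogs 1 to 3 at 3.29%, 8.15% and 5.37%. The genotypes overlapped, as derived dog 1 lay below ancestral dogs 2 and 3. The means were 3.52% ± 0.656 (SD, n = 3) and 5.60% ± 2.43 (SD, n = 3), which differed by 2.08 percentage points (exact two-sided permutation test, p = 0.3). Without derived dog 2, at the same 577 regions, the difference was 0.809 points, without derived dog 1 it was 3.24 points, and with E2F1 peaks of a q below 1e-10 it was -0.0578 points. At regions marked in all 6 dogs the share was 11.1% to 36.5%, and derived dog 2 was highest and derived dog 1 lowest, so the dogs' E2F1 lists differed in reach.

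To take this reach into account, the bases of derived-only regions inside E2F1 peaks were set, in each dog, against those of the six-animal regions. Ancestral dogs 1 to 3 had log2 ratios of -1.55, -2.29 and -2.36, and derived dogs 1 to 3 had 0.08, -1.63 and -0.97. The difference was 1.23 on the log2 scale (exact two-sided permutation test, p = 0.2), and the genotypes overlapped through ancestral dog 1 and derived dog 2. The same ratio was also higher in derived dogs at ancestral-only regions, by 0.39, and at one-animal regions, by 0.53 (same exact test, p = 0.6 and 0.5). Derived dog 1 was highest there too, at -0.78 and -0.55. Whether the ratio takes out all of a dog's reach was not tested. The derived-only regions were also set against the ancestral-only regions, a reference added after the values were seen. There the ancestral dogs had a mean log2 ratio of -0.02 ± 0.66 (SD, n = 3) and the derived dogs one of 0.82 ± 0.16 (SD, n = 3). The groups did not overlap, and the difference of 0.84 had the smallest p that 3 dogs against 3 allow (p = 0.1 by the same exact permutation test). Both sets of regions were chosen from the H3K27ac lists of these same dogs, by opposite rules on genotype. The choice could therefore part the groups by itself, so this p is no independent test.

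With all deposited E2F1 peaks, including those of higher q, the shares separated by genotype, but the ratios to six-animal regions did not. Of the derived-only regions, ancestral dogs 1 to 3 had a peak at 10.1%, 7.80% and 12.5%, and derived dogs 1 to 3 at 17.0%, 20.97% and 17.2%. Every derived dog lay above every ancestral dog. The means were 10.1% ± 2.34 (SD, n = 3) and 18.4% ± 2.25 (SD, n = 3), a difference of 8.26 percentage points (exact two-sided permutation test, p = 0.1, the smallest possible). Here too the choice of regions could part the groups by itself, so this p is no independent test. At the ancestral-only regions the same peaks gave 11.5% ± 2.83 and 12.2% ± 1.87 (SD, n = 3, p = 0.7 by the same exact test), and at six-animal regions 44.7% ± 6.16 and 46.2% ± 9.14 (SD, n = 3, p = 0.9 by the same exact test). The one-animal regions separated too, though by less, with 5.72% ± 0.952 in ancestral and 7.65% ± 0.808 in derived dogs (SD, n = 3, p = 0.1 by the same exact test). Regions in 3 dogs of mixed genotype overlapped, with 11.4%, 10.5% and 15.1% in the ancestral and 14.2%, 19.9% and 14.4% in the derived dogs, a difference of 3.84 points (exact permutation test, p = 0.3). Separation at this looser threshold thus occurred at derived-only and one-animal regions, and whether the difference was greater at the derived-only regions than at the mixed ones was not tested.

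**Figure D5:**
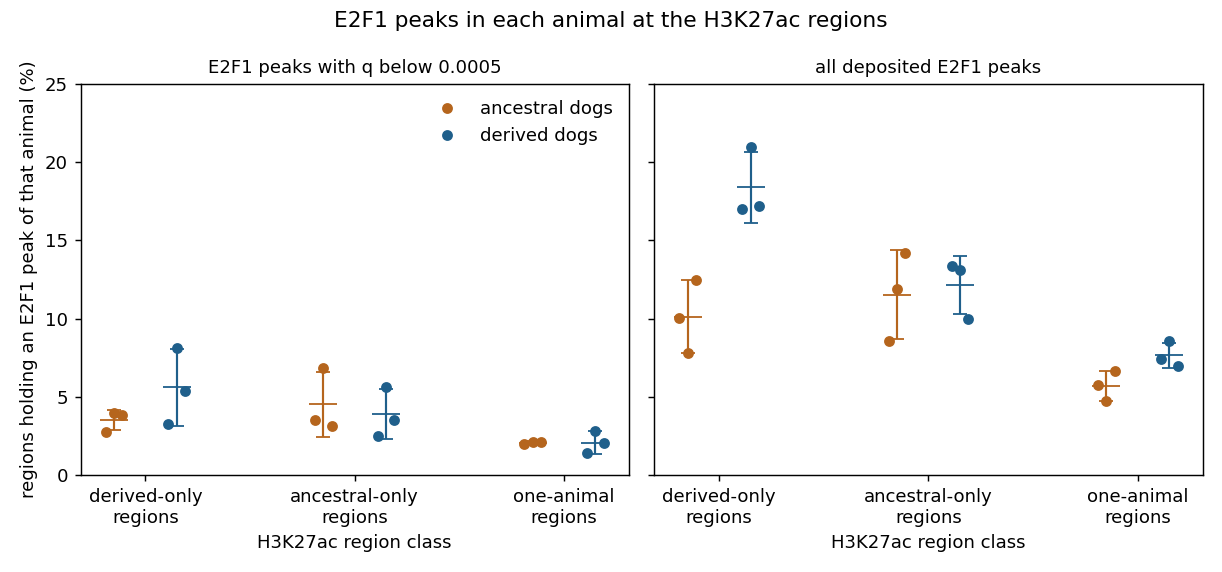
Share of H3K27ac regions holding an E2F1 peak of each dog (y axis, percent) at derived-only, ancestral-only and one-animal regions (x axis), with E2F1 peaks of q below 0.0005 (left) and all deposited peaks (right). Points are dogs, and bars are the mean ± SD of 3 dogs. At derived-only regions the genotypes overlap on the left and separate on the right, at 7.80% to 12.5% against 17.0% to 20.97%.

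E2F1 was called at about as many derived-only regions as at other regions found in 3 dogs. Counted at a q below 0.0005, 121 regions (20.97%) held an E2F1 peak in any dog, 64 of them in derived dogs alone (11.1%), 38 in ancestral dogs alone (6.59%) and 19 in both. Over all H3K27ac regions 29.1% held one in any dog, 8.94% in derived and 9.42% in ancestral dogs alone, and over the mixed sets of 3 dogs 22.3%, 9.60% and 9.31%. At least 2 dogs had one in 28 of the 121 regions, 23.1%, against 44.4% over all regions with E2F1 and 20.3% in the mixed sets. With all deposited peaks these became 308 regions (53.4%), with 157 in derived dogs alone (27.2%), 63 in ancestral dogs alone (10.9%) and 88 in both. The shares over all regions were 53.5%, 17.2% and 12.2%, and over the mixed sets 52.7%, 22.3% and 14.7%, so more regions had E2F1 in derived than in ancestral dogs alone there too. At least 2 dogs had one in 125 of the 308 regions, 40.6%, against 40.7% in the mixed sets and 54.6% over all regions. The pattern of the H3K27ac rule itself, E2F1 in all 3 derived and no ancestral dog, occurred at 2 of the 577 regions (0.347%), against 0.416% of all H3K27ac regions. Back at a q below 0.0005, the E2F1 peaks at derived-only regions had a median −log10 q in each dog from 3.95 to 4.65. The medians of the lists at this threshold were 4.36 to 4.55. Only derived dog 1 lay above its own list, at 4.65 against 4.36, and derived dog 3 equalled its list at 4.47. Regions with an E2F1 peak in a derived dog, 83 in number, were wider than the 456 with none, at a median of 1694 against 1341.5 bp, and their lowest H3K27ac percentile had a median of 9.79 against 13.3, so the regions with E2F1 were not those with the higher percentiles.

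The region with E2F1 in the most dogs was chr37:86859-87795, close to the start of that chromosome, where 5 dogs had a peak below a q of 0.0005. Its −log10 q for E2F1 was 7.48 and 7.93 in ancestral dogs 1 and 2, and 6.48, 5.94 and 4.61 in derived dogs 1 to 3, and ancestral dog 3 had a weaker peak of 1.75. The region's H3K27ac fold enrichments of 1.49, 1.47 and 1.499 in derived dogs 1 to 3 were the lowest of all derived-only regions in each list, with −log10 q values of 4.59, 5.37 and 3.87. E2F1 there was thus called in both genotypes, while H3K27ac was called in the derived dogs. At chr1:112582156-112584784, E2F1 passed in ancestral dogs 1 and 2 and in derived dogs 1 and 2. At chr1:116821381-116822601 and chr24:42797353-42800778 it passed in ancestral dog 2 and in 2 derived dogs each.

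Only chr15:6443153-6445210 had E2F1 peaks in the 3 derived dogs and no ancestral dog at a q below 0.0005. That single region was 0.173% of the derived-only regions, where the pattern occurred at 0.0614% of all H3K27ac regions and 0.0519% of the mixed sets. Its E2F1 peaks ran from 6444728 to 6444960, from 6443201 to 6443873 and from 6443908 to 6444079 in derived dogs 1 to 3, so no base was shared by any pair of them. Their −log10 q values were 5.45, 5.12 and 3.47. Ancestral dog 3 had a peak of 2.56 from 6443529 to 6443736, which the threshold removed and which lay within the peak of derived dog 2. The H3K27ac peaks there had −log10 q values of 3.38, 6.69 and 2.83 in derived dogs 1 to 3, and 318 bp were covered in all 3.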

How the data were processed

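E2F1 and H3K27ac *ChIP-seq* peaks of 6 dogs were used, grouped by the genotype in the sample labels. The authors trimmed reads, aligned them to CanFam3.1 with bowtie, kept multi-mapped reads, removed duplicates by molecular identifiers and called peaks in each dog with macs2, narrow for E2F1 and broad for H3K27ac. The submitters' processing notes name Bowtie 1.1.2, Trim Galore 0.0.6 and MACS2 2.2.0. For bowtie the paper's methods name a later version, so the sources differ on the aligner. The deposited score ranks peaks and was not used. The deposited fold is a ratio over local background. The significance of each peak was deposited as −log10 p and as −log10 q. No normalization between dogs is in the lists, and their filtering against input DNA and spike-in scaling are not in them either. Whether input entered the calls, and the read depth behind each peak, are not given in the sources used here, so a missing peak does not show a missing mark. The 6 input libraries have no list that was used here.

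All H3K27ac peaks were merged, and an overlap was at least 1 bp. Genotypes were compared over dogs by exact two-sided permutation tests (20 assignments). Each p-value gives how extreme the observed difference was among those assignments. Nothing says how the dogs relate, so the p-values apply to these animals only. Members and lists were chosen with earlier results of these data known. The naming rule took the 5 regions with the highest and the 3 with the lowest minimum percentile by q over the derived lists, the 3 widest, the 3 farthest from an ancestral peak, 5 with E2F1 in most dogs, that nearest to the TE, and the fullest bins. Exon and TE coordinates are the study's. Alternatives were other q thresholds, merging and overlap rules, chromosome X, equal numbers of peaks and each dog left out. The functions were tested on simulated data. Python 3.11.15, pandas 2.3.3 and scipy 1.17.1 were used.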

Additional observations from a re-analysis of the deposited data

How the results depend on the processing

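Of 98 values under alternative settings, 28 moved beyond their limits and 1 reversed. The other 69 include all E2F1 differences that kept their direction, whatever their size. The count of derived-only regions stayed within 1.5 times of 577 under every alternative but a q below 1e-05, which gave 185 derived-only and 129 ancestral-only regions, and the loss of a dog. The members were less stable than the count. Of the 577 regions, 452 were kept at a q below 0.05, 305 with an equal number of peaks per dog, 186 when at least 50% of a region had to be covered, 496 with no ancestral peak within 1000 bases, and 6 at a q below 1e-05. With 5 dogs fewer animals must agree, so counts rise. The derived-only count was 2444, 943 and 1055 without ancestral dogs 1, 2 and 3, and 1660, 2598 and 1779 without derived dogs 1, 2 and 3. The ancestral-only count was 1579, 1985 and 1740, and 1229, 989 and 1177, in the same order.

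The median width was 2307 bp at a q below 1e-05, 1580.5 bp with equal numbers of peaks, 1512 bp with peaks up to 1000 bases apart merged, 2208 bp with at least 50% covered, and 999 to 1661.5 bp with 1 dog left out. The share within 1000 bases of a six-animal region was 0.541% at a q below 1e-05, 0% with peaks up to 1000 bases apart merged, as that rule removes such neighbours, 1.85% with at least 50% covered and 1.21% with no ancestral peak within 1000 bases. It was 1.56% within 500 and 44.0% within 5000 bases. The cause of these moves was otherwise not tested.

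The E2F1 difference at derived-only regions turned to -0.0578 percentage points with E2F1 peaks of a q below 1e-10 (exact permutation test, p = 1), and the cause was not tested. There the ratio to six-animal regions could be had in 3 dogs only. With 1 dog left out of the test and the 577 regions kept, an alternative chosen after seeing the data, the difference in share ranged from 0.809 to 3.24 points and that in the ratio from 0.769 to 1.62 on the log2 scale. With the regions chosen anew from the other 5 dogs, which gave 943 to 2598 of them, they ranged from 0.186 to 2.34 points and from 0.596 to 1.40. With a replicate block the differences were 2.08 points and 1.23 on the log2 scale (exact sign-flip test over 8 assignments, p = 0.25 for both, the smallest possible). The numbers name different animals. Deviations of H3K27ac bases per 1-Mb bin correlated at -0.164, -0.412 and -0.338 between dogs of the same number, so the numbers do not pair the dogs. Peak lists give no read depth, so no counting error can be given.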
